A study of Mus musculus with 8 samples.

Results

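In the mouse genome, 1808 stretches were in lamina-associated domains (LADs) of adipocytes and not of preadipocytes. Of these, 391 (21.6%) were mostly in LADs in adipocytes with Tmem120a knocked down and mostly outside LADs in adipocytes with Tmem120a and Tmem120b knocked down together. These recruited regions lost in the double knockdown only were selected on the measured LAD lists themselves: at least 50% of the length in LADs of the Tmem120a knockdown and under 50% in LADs of the double knockdown. Their number and their coverage in those lists are therefore a description and not a test. Lost and kept compare separate cells between conditions and follow no region over time.

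LADs are stretches of chromatin that contact the nuclear lamina, the protein meshwork under the inner nuclear membrane. They are generally poor in genes and in expressed genes, and many are shared between cell types, while some are gained or lost as a cell differentiates. Tmem120a and its paralog Tmem120b are transmembrane proteins of the nuclear envelope that are found in fat cells and are needed for normal adipogenesis. In DamID, a lamin fused to the bacterial methylase Dam marks GATC sites that come near the lamina, and freely diffusing Dam marks accessible DNA as the reference.

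The study applied LaminB1-DamID to 3T3-L1, a mouse preadipocyte line that turns into fat-storing adipocytes with insulin, dexamethasone, IBMX and rosiglitazone. There were 4 conditions with 1 Dam and 1 LaminB1-Dam library each (8 libraries): untreated preadipocytes at day 0, adipocytes at day 9 with control non-target shRNA, adipocytes at day 9 with Tmem120a shRNA, and adipocytes at day 9 with Tmem120a/b shRNA. The lentiviral Dam constructs were added to the adipocytes at day 6, so the marks cover the last days of differentiation. The shRNAs came from stable lines and the preadipocytes are labelled untreated, so the preadipocyte and adipocyte lists also differ in carrying an shRNA.

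No condition had a second pair of libraries, so no difference has a replicate check. The lists hold positions and no signal or reads, so the depth behind each LAD is unknown, the knockdown cannot be checked, and neither can the cell type from its markers. Intervals below are 95% Wilson intervals over regions. They cover counting only, and neighbouring regions in 1 LAD are not independent. The lists were also cut into unequal numbers of LADs: the preadipocyte list has 3914, the control adipocyte list 2542, the Tmem120a knockdown list 5723 and the double knockdown list 6971. The part of this difference in what follows was not tested.

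The regions start and end at GATC, the site that Dam methylates, which shows the grain at which a region could be called. Of 782 borders of the 391 regions, 781 (99.87%) fell at a GATC in the mm9 (NCBIM37) assembly. The sequences around the borders of the 4 longest regions that were wholly in Tmem120a knockdown LADs and had no overlap with double knockdown LADs are given here, 60 bases each on the plus strand, with every GATC in capitals and the border site in the middle.
chr16:62879136-62879195: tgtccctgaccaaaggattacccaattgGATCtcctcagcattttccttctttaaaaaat
chr16:62939355-62939414: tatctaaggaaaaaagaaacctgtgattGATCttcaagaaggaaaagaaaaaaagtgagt
chr16:65648056-65648115: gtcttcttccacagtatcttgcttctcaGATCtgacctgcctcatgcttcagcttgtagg
chr16:65707230-65707289: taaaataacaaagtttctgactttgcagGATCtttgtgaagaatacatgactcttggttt
chr13:117583487-117583546: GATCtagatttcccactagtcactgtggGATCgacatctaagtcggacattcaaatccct
chr13:117640798-117640857: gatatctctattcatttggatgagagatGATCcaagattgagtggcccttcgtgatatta
chr4:72553789-72553848: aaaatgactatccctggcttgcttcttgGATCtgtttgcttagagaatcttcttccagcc
chr4:72609005-72609064: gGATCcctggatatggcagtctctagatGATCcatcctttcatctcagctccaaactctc
Between such borders a region held a median of 109 GATC sites (16 to 958), so every region spanned 16 sites or more.

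Of 1576 annotated miRNA genes 9 (0.571%) lay inside members, which span 0.948% of the genome, and 55 (3.49%) lay inside recruited regions of any class, which span 4.26%. Holding miRNA genes was thus no feature of the members. Among the 9 was the Mir206 and Mir133b pair, which encodes muscle-enriched miRNAs. By symbol, 3 of the 9 were matched to RefSeq (GRCm38.p6), and the others carry clone names. Their mature sequences are shown with the seed, bases 2 to 8, in capitals, because the seed sets which transcripts a miRNA pairs with.
mmu-miR-206-3p: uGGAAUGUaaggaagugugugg
mmu-miR-206-5p: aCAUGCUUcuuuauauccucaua
mmu-miR-133b-3p: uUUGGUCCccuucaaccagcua
mmu-miR-133b-5p: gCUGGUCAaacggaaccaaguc
mmu-miR-713: uGCACUGAaggcacacagc
No 2 of these 5 sequences share a seed.

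The 391 regions summed to 24.2 Mb, 22.2% of the 108.9 Mb of all recruited regions. Their median length was 46.4 kb, with quartiles of 26.3 and 77.8 kb and a range of 8.29 to 467 kb. All lay wholly in adipocyte LADs and had no overlap with preadipocyte LADs. In the Tmem120a knockdown the median region kept 91.3% of its length in LADs, and in the double knockdown 7.65%.

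The other recruited regions fell into 3 classes by the same lists. There were 623 (34.5%) under 50% in both knockdowns, 214 (11.8%) under 50% in the Tmem120a knockdown only, and 580 (32.1%) that kept at least 50% in both. In the double knockdown 1014 regions (56.1%) were under 50% in all. Of the 971 regions that kept at least 50% in the Tmem120a knockdown, 391 (40.3%) were under 50% in the double knockdown.

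**Figure D1:**
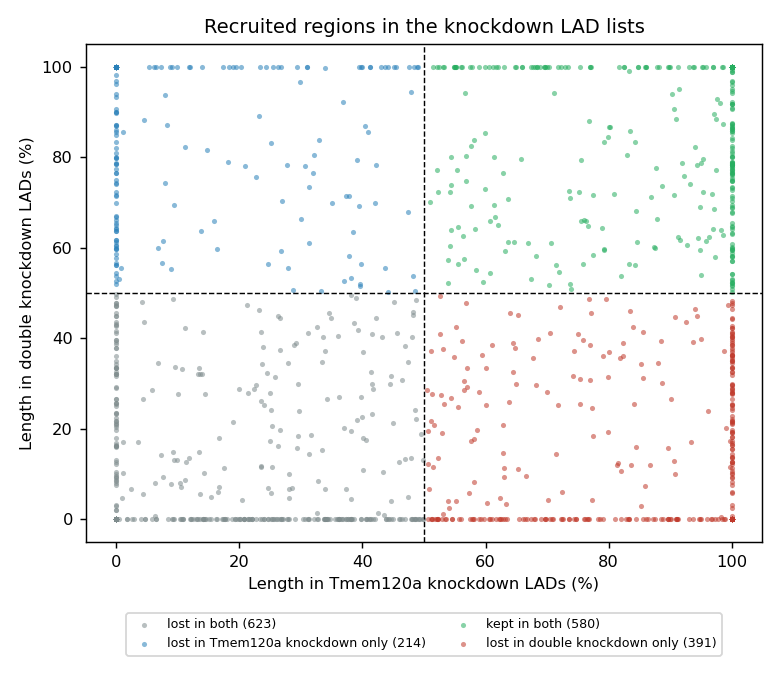
Each point is 1 of the 1808 recruited regions, placed by the percentage of its length in Tmem120a knockdown LADs (x axis) and in double knockdown LADs (y axis), with dashed lines at 50% and colours for the 4 classes. The 391 regions lost in the double knockdown only fill the lower right field, many of them along its edges, at 100% in the single or 0% in the double knockdown.

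The contrast was complete in some regions and slight in others. In 169 regions the whole length was in Tmem120a knockdown LADs, in 175 none was in double knockdown LADs, and in 75 both held. The 2 percentages differed by at least 80 points in 150 regions, by 71.1 points in the median region and by 3.22 points in the least. In 91 regions 1 of the percentages lay within 10 points of its threshold, that of the Tmem120a knockdown in 60 and that of the double knockdown in 35.

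At the threshold itself, the values of members and other regions met. The member chr3:91916411-91962937 had 50.6% in Tmem120a knockdown LADs and 28.5% in double knockdown LADs, whereas chr1:146205545-146511406, with 49.9% and 13.2%, was outside. On the other threshold, the member chr15:44119483-44158677 had 52.6% in the Tmem120a and 49.4% in the double knockdown, whereas chrX:18029613-18075333, with 100% and 50.3%, was outside.

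Counted by length and not by region, 63.7% of the members' sequence (15.4 Mb) was in LADs of the Tmem120a knockdown and not of the double knockdown. Both lists held 15.2%, neither held 17.7%, and only the double knockdown list held 3.43%. Where LAD remained in the double knockdown it reached in from 1 end of the region in 150 regions and from both ends in 29, and it lay only inside, touching no end, in 37.

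To see how common the same pattern was where differentiation changed nothing, the stretches in LADs of both preadipocytes and adipocytes were cut into 25169 windows of 40 kb. Of these, 1347 (5.35%) were at least 50% in Tmem120a knockdown LADs and under 50% in double knockdown LADs. The opposite pattern, loss in the Tmem120a knockdown only, was found in 824 (3.27%), and loss in both in 524 (2.08%). The share among recruited regions was 4.04 times that among constant windows, a ratio that ranged from 1.98 to 9.20 over the other ways of calling described at the end. An excess over constant windows was not particular to the members: the ratio was 3.62 for regions lost in the Tmem120a knockdown only and 16.6 for regions lost in both. A recruited region always ends at a LAD border in 1 of the lists and a window within a constant stretch need not, and the part of this in the ratio was not tested.

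Most members, like most recruited regions, adjoined LADs that the preadipocytes already had. A stretch in LADs of both preadipocytes and adipocytes touched 331 of the 391 regions (84.7%, 80.7 to 87.9), beside 81.4% of all 1808. It did so on both sides in 194 (49.6%), where the region closed a gap between standing LADs, and on 1 side in 137 (35.0%). The remaining 60 (15.3%) touched none. The share touching a constant stretch was lower in regions lost in both knockdowns (70.3%, 66.6 to 73.8) and higher in regions kept in both (91.7%, 89.2 to 93.7), and those intervals do not overlap that of the members. For regions lost in the Tmem120a knockdown only it was 79.9% (74.0 to 84.7), and the intervals overlap. The intervals treat regions as independent, although the 391 members lie in 297 adipocyte LADs. They cannot show whether a second pair of libraries would give the same order.

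The adipocyte LADs that hold the members, 297 in number, were long, with a median over members of 963 kb, beside 377 kb for regions lost in both knockdowns and 972 kb for regions kept in both. Of its host LAD the median member saw 88.4% still in LADs with Tmem120a knocked down and 70.0% with both genes knocked down. The host LAD includes the member, so part of this difference follows from the rule. Regions lost in the Tmem120a knockdown only had the reverse order, with medians of 71.1% and 86.5%. For 50 members no part of the host LAD remained in the double knockdown list. The same held for 195 of the 623 regions lost in both knockdowns.

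The stretch without LAD in the double knockdown usually ran past the region. Around the largest uncovered piece of each member it had a median length of 123.5 kb, of which 71.0 kb lay outside the member. For regions lost in both knockdowns it was 271 kb, with 208 kb outside. It lay wholly inside the member in 45 of 391 cases. The adjoining constant stretch, taken up to 20 kb from the border, was fully in Tmem120a knockdown LADs for 201 of 331 members and fully in double knockdown LADs for 62. It had no LAD in 13 and 96 of them. The stretch without LAD in the double knockdown thus often took in sequence that was in preadipocyte LADs. This was not particular to the members. In regions lost in the Tmem120a knockdown only, the adjoining stretch had no LAD in that knockdown for 47 of 171. In the double knockdown it had none for 215 of 438 regions lost in both and for 13 of 532 kept in both.

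The 137 members with a constant LAD on 1 side were turned to the same direction and averaged. In the 10 kb before the inner border, the one towards the constant LAD, Tmem120a knockdown LADs held 85.9% of the sequence and double knockdown LADs 46.7%. In the outermost of 10 equal bins of the region the values were 57.8% and 11.8%. In the first 10 kb past the outer border, where adipocyte LADs covered 5.02%, the Tmem120a knockdown list covered 46.5% and the double knockdown list 15.8%. Mean coverage by the Tmem120a knockdown list thus changed gradually across the outer border. That border is set by the edge of an adipocyte LAD, so only the adipocyte list must drop there. A mean does not place the edge in single members. Further out the Tmem120a knockdown list still covered 31.1% at 40 kb and 40.1% at 70 kb, and LADs apart from the member were not separated. In the 239 regions lost in both knockdowns that were turned in the same way, the Tmem120a knockdown list covered 9.22% of the first 10 kb outside. In the 156 such regions kept in both it covered 58.6%, and in the 96 lost in the Tmem120a knockdown only the double knockdown list covered 39.2%, so coverage past the outer border by a list that keeps the region was not particular to the members.

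**Figure D2:**
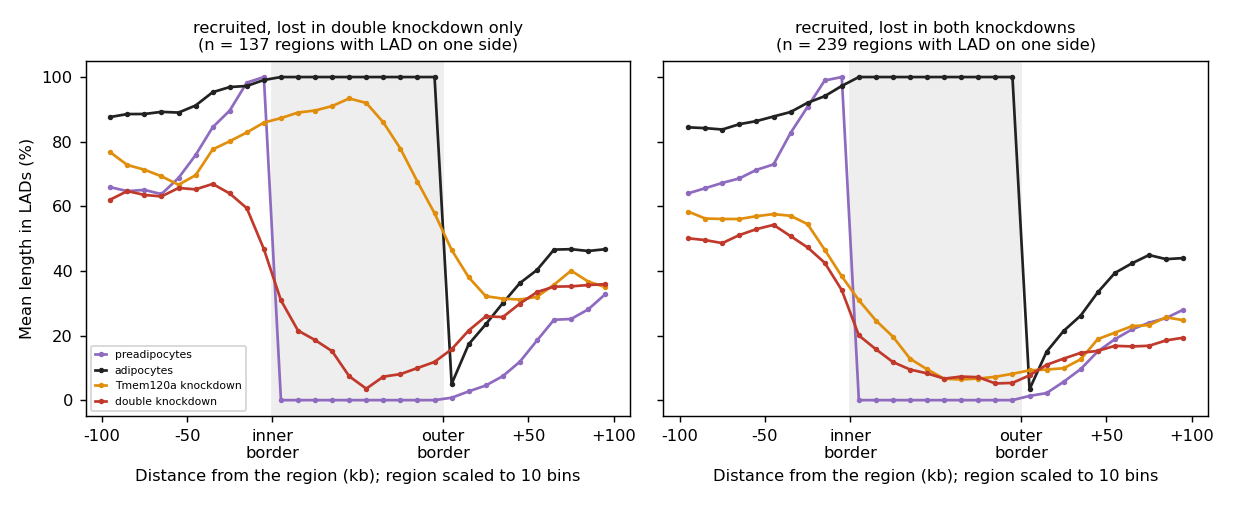
Mean percentage of sequence in LADs (y axis) in 10 bins of 10 kb on each side of the region and 10 equal bins across it (x axis), for regions that touch a constant LAD on the left only. In the 137 regions lost in the double knockdown only (left panel) the Tmem120a knockdown line is high through most of the region. It falls to 57.8% in the outermost bin and is at 46.5% in the first 10 kb past the outer border. The double knockdown line is already at 46.7% before the inner border. The 239 regions lost in both knockdowns (right panel) have both lines low.

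The 8 longest regions without any LAD in the double knockdown and wholly in LADs of the Tmem120a knockdown measured 47.5 to 60.2 kb. The longest, chr16:62879167-62939385, lay at the end of a 316 kb adipocyte LAD, of which 100% remained in the Tmem120a and 73.3% in the double knockdown. The next, chr16:65648087-65707260, was an adipocyte LAD of its own of 59.2 kb with no constant LAD beside it, and it stood in a stretch of 470 kb without LAD in the double knockdown. A region on the X chromosome, chrX:83939413-83986941, lay between constant stretches inside an adipocyte LAD of 4429 kb. The Tmem120a knockdown left 86.3% of this LAD and the double knockdown 49.2%.

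The longest members were mixed in both knockdowns. The longest, chr16:66826672-67294131 (467 kb), lay wholly within Cadm2, a cell adhesion gene of the nervous system. It was 74.3% in LADs of the Tmem120a knockdown, in 4 pieces, and 31.8% in LADs of the double knockdown, in 3 pieces. Among the 8 longest, the region at the start of Klhl1, chr14:96868922-97107551 (239 kb), was covered by 1 unbroken LAD in the Tmem120a knockdown (100%) and was 10.0% covered in the double knockdown.

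The share of recruited regions that were members was lowest among the shortest regions. It was 16.3% (12.8 to 20.6) under 20 kb, 21.2% (18.5 to 24.3) from 20 to 50 kb, 25.6% (21.66 to 29.96) from 50 to 100 kb and 23.4% (18.7 to 28.7) above. The intervals for regions under 20 kb and from 50 to 100 kb do not overlap, and those of neighbouring bins do. They cover counting over regions only. Members were found on all of chromosomes 1 to 19 and X. The X chromosome held 40 members of 167 recruited regions (24.0%, 18.11 to 30.96) and the autosomes 351 of 1641 (21.4%, 19.5 to 23.4). Among single chromosomes the share ran from 16.1% (9.84 to 25.2) on chromosome 13 to 30% (18.1 to 45.4) on chromosome 11, and these intervals overlap. Per length the X chromosome held more of them, 24.0 members per 100 Mb beside 14.2 on the autosomes. Recruited regions as a whole were also denser there, with 100.2 per 100 Mb beside 66.4.

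**Figure D3:**
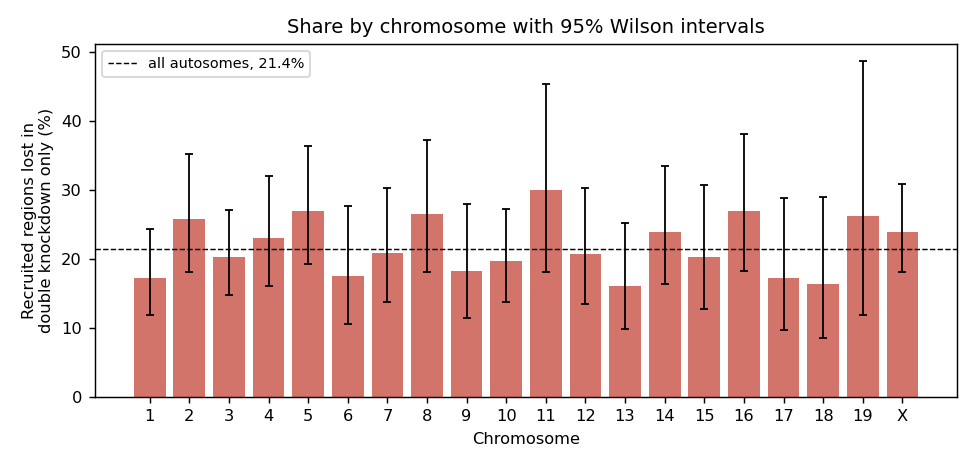
Bars give, for each chromosome (x axis), the percentage of recruited regions lost in the double knockdown only (y axis), with 95% Wilson intervals over regions, and the dashed line is the value for all autosomes, 21.4%. Every interval includes the dashed line.

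The next recruited region lay at a median distance of 61.4 kb from a member, beside 62.9 kb for regions lost in both knockdowns and 75.4 kb for all recruited regions. The nearest recruited region was of the same class for 108 of them (27.6%, 23.4 to 32.3), beside the 21.6% that members make up of all recruited regions. It was of the same class for 55.7% (51.8 to 59.6) of regions lost in both knockdowns, which make up 34.5%. The shares were 18.2% (13.6 to 23.9) for regions lost in the Tmem120a knockdown only, which make up 11.8%, and 45.7% (41.7 to 49.8) for regions kept in both, which make up 32.1%. In each class the share lay above the class's own size.

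Base composition was not used to choose the members. Their median GC content was 38.8% (quartiles 37.3 and 40.6), close to the 38.9% of regions lost in both knockdowns and below the 40.5% of regions lost in the Tmem120a knockdown only and the 39.8% of regions kept in both. The quartile ranges of all 4 classes overlap. Sequence in LADs of both preadipocytes and adipocytes had 39.3% GC, and sequence outside all 4 lists had 44.2%. The ratio of observed to expected CpG had a median of 0.151 in members and between 0.153 and 0.162 in the other classes. GATC density was close in all classes, with medians of 2.41 per kb in members and 2.44 to 2.46 in the others.

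**Figure D4:**
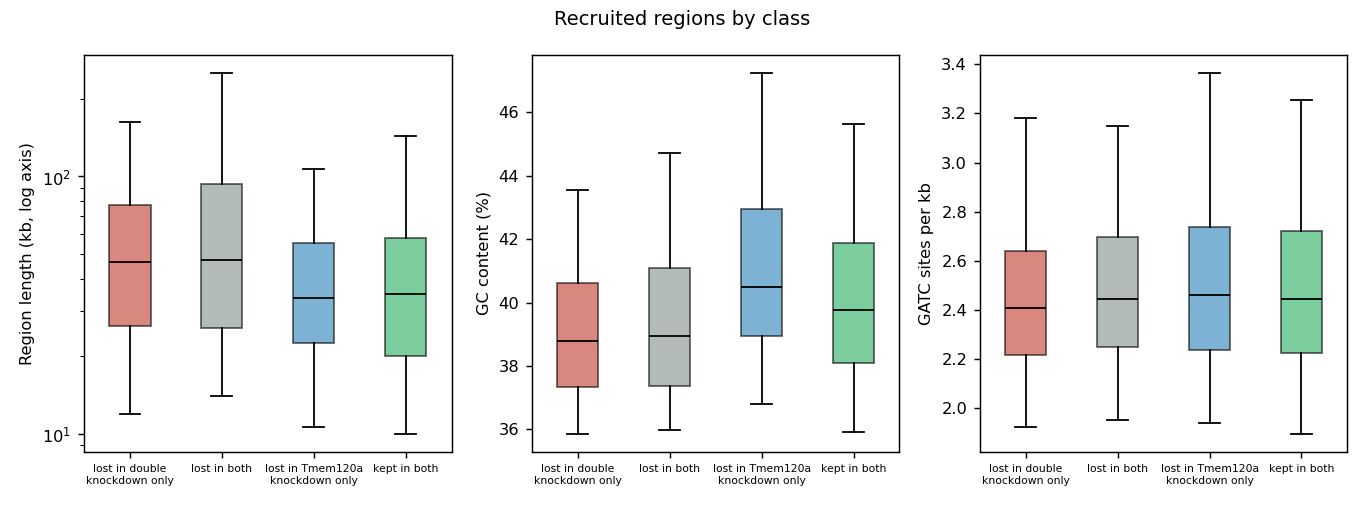
Boxes show the median and quartiles, and whiskers the 5th and 95th percentiles, of region length (kb, log axis), GC content (%) and GATC sites per kb for the 4 classes of recruited regions. Median length is 46.4 kb and median GC content 38.8% in regions lost in the double knockdown only, both near the regions lost in both knockdowns, and GATC density is alike in all classes.

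Genes were few, as in recruited regions as a whole. Of 22367 protein-coding genes, 79 (0.353%) had the annotated 5′ end (TSS) in a member and 179 (0.8%) had some part of the body in one. Recruited regions of any class were met by 688 genes (3.08%). That is 3.26 TSS per Mb, beside 2.24 in regions lost in both knockdowns, 4.43 in regions lost in the Tmem120a knockdown only, 3.74 in regions kept in both, 3.06 in all recruited regions, 4.04 in constant LADs and 8.74 in the genome. Of the 391 regions 52 (13.3%, 10.3 to 17.0) held a TSS, beside 14.3% of all recruited regions, and 233 (59.6%, 54.7 to 64.3) met no protein-coding gene, beside 59.2%. Of the 179 genes, 43 lay wholly inside a member and 100 had their TSS outside. The genes met had a median length of 85.0 kb, beside 86.5 kb for regions lost in both knockdowns, 93.5 kb for regions lost in the Tmem120a knockdown only, 106.5 kb for regions kept in both and 15.4 kb for all protein-coding genes. Counting each gene once over all recruited regions, the median was 69.6 kb. A long gene is more likely to meet a region, whatever the regions are.

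Not every TSS in a member followed the pattern of its region. Of the 79, 46 were in Tmem120a knockdown LADs and not in double knockdown LADs, 22 were in neither, 11 in both and 0 in double knockdown LADs alone.

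Mir206 (chr1:20669091-20669163, plus strand) and Mir133b (chr1:20672850-20672968, plus strand) shared a member of 26.3 kb that closed a gap between standing LADs. Both were outside LADs in preadipocytes, inside in control adipocytes and in the Tmem120a knockdown, and outside in the double knockdown. Their region was 100% covered in the Tmem120a and 34.9% in the double knockdown, where the remaining LAD began past the miRNA genes. Myh4 (chr11:67051314-67073948), the fast type IIb skeletal myosin heavy chain, had 38.1% of its body in preadipocyte LADs, 100% in LADs of adipocytes and of the Tmem120a knockdown, and 0% in those of the double knockdown. Its member, chr11:67042067-67065323, held its TSS and was 89.7% covered in the Tmem120a knockdown and not at all in the double knockdown. Unc13c, a presynaptic priming factor that the study follows with its muscle genes, met 3 members with its body and not its TSS, and its body was 54.1%, 100%, 68.9% and 39.2% in LADs in the same order. The muscle list takes in Unc13c because the study does. Of its 47 matched genes, these 2 (4.26%) met a member, beside 0.8% of all genes. Myh4 was the 1 sarcomere gene of the 2 and the 1 met by its TSS (2.13%, beside 0.353%). A recruited region of any class was met by 9 of the 47, beside 3.08% of all genes, and 5 had the TSS in one. Nothing particular to muscle genes in members can be read from such counts.

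None of the listed fat cell genes met a member, nor any other recruited region, so this count of 0 is that of recruited regions as a whole. The lists were 22 adipogenic transcription factors, 21 lipid storage and adipokine genes, 17 fatty acid and triglyceride synthesis enzymes and 14 thermogenic genes, each by any part of the body. Members were also not met by 49 Wnt genes, 63 BMP, activin and TGF-beta genes and 11 genes of the Tmem120 pair and the lamina. Since 0.8% of all genes met a member, a count of 0 in lists of this size is close to the background. A gene with a role in energy balance that lay in a member was Mc3r, a melanocortin receptor (chr2:172073992-172076614). It was named after its values were seen. It was in LADs over its whole body in adipocytes and in the Tmem120a knockdown and outside them in preadipocytes and in the double knockdown.

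Among genes of the extracellular matrix, 3 of 47 Adamts and Mmp proteases (6.38%) had the TSS in a member, beside 0.353% of all genes. All 3 lay in the same 84.4 kb region on chromosome 9, so they count as 1 region. Of the 47, 6 had the TSS in a recruited region of any class. By the body 7 met one, beside 3.08% of all genes. Mmp10 (stromelysin 2) was in LADs in both knockdowns over 100% of its body. Mmp8, the neutrophil collagenase, had 19.9% left in the Tmem120a and 0% in the double knockdown, and Mmp27 had 0% in both. So of these 3 neighbours Mmp8 alone had its TSS in Tmem120a and not in double knockdown LADs. Among 31 semaphorins and plexins, Sema3e, a secreted guidance ligand of plexin D1, had its TSS in a member that was 76.2% covered in the Tmem120a knockdown and not at all in the double knockdown, while its body was 96.2% in adipocyte LADs, 19.5% in the Tmem120a and 38.2% in the double knockdown. Sema3a met a member with its body, which makes 2 of 31 (6.45%), where 4 met a recruited region. These shares stand beside 0.8% of all genes for members and 3.08% for recruited regions, and gene length was not taken into account.

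Among 59 cadherins and protocadherins, Pcdh7 had its TSS in 1 member and more of its body in another, chr5:58140323-58259405 (119 kb), which was 100% covered in the Tmem120a and 19.2% in the double knockdown. Its whole body went from 97.6% to 61.6% between these. Pcdh15 and Cdh18 met members with their bodies only, which makes 3 of 59 (5.08%), beside 0.8% of all genes, where 12 met a recruited region of any class, beside 3.08% of all genes. Members were also met by 3 of 51 glutamate and GABA receptor genes (5.88%, beside the same 0.8%), where 10 met a recruited region, all 3 by the body only: Gria2, an AMPA receptor subunit, Grik2, a kainate receptor subunit, and Gabrb2, a GABA-A receptor subunit. The body of Gria2 was 78.5% in LADs in the Tmem120a and 0% in the double knockdown, although only 3.63 kb of it lay in the member. Several of these genes are long (1550 kb for Pcdh15, 925 kb for Cdh18 and 689 kb for Grik2), and length was not taken into account here either.

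Other lists added few genes. Serpinb2, the urokinase inhibitor PAI-2 and 1 of 60 serpins, was 100% in the Tmem120a and 98.2% in the double knockdown and so did not follow its region. Il23r, the receptor of interleukin 23 and 1 of 92 interleukin and interferon genes, was 100% and 3.29%. Of 355 solute carriers with Slc symbols Slc39a8 had its TSS in a member, and its body was 0% in both knockdowns. Slco1a5, an organic anion transporter outside that list, had its TSS in another member, and its body was 93.5% in LADs in the Tmem120a and 38.8% in the double knockdown. Col6a4 of 43 collagens, Kcnip4 and Kcnip1 of 95 potassium channel genes, Vmn1r112 of 325 vomeronasal receptors, and Slc7a11 and Slc35f1 were met by the body only. None of 91 cytochrome P450 genes, 60 chemokines and receptors, 371 zinc finger genes or 92 keratins met a member, where 3, 1, 3 and 1 met a recruited region of any class. At a background of 0.8% for members and 3.08% for recruited regions, little can be read from a count of 0 in the shorter of these lists.

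Neighbouring genes of tandem clusters shared a region. Of 1113 olfactory receptor genes 9 (0.809%), Olfr651 to Olfr659, lay in 1 member of 122.8 kb on chromosome 7. That share is the same as the 0.8% of all genes that met a member by the body. By TSS it stands beside 0.353%, and the 9 genes share 1 region. The region was 66.0% in LADs of the Tmem120a knockdown and had none in the double knockdown. Olfr653, Olfr654 and Olfr655, in its middle, were in neither, and the other 6 were in LADs of the Tmem120a knockdown. On chromosome 3, a member of 152 kb held Lce1e to Lce1j and Kprp, genes of the cornified envelope of the skin, and was 88.5% and 39.3% covered. This cluster was named after its values were seen. Lce1f, Lce1g, Lce1h, Lce1i and Lce1j were in LADs in the Tmem120a and not in the double knockdown, Lce1e in neither and Kprp in both. Genes of such clusters resemble each other, and the effect of reads that map to several copies was not tested.

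**Figure D5:**
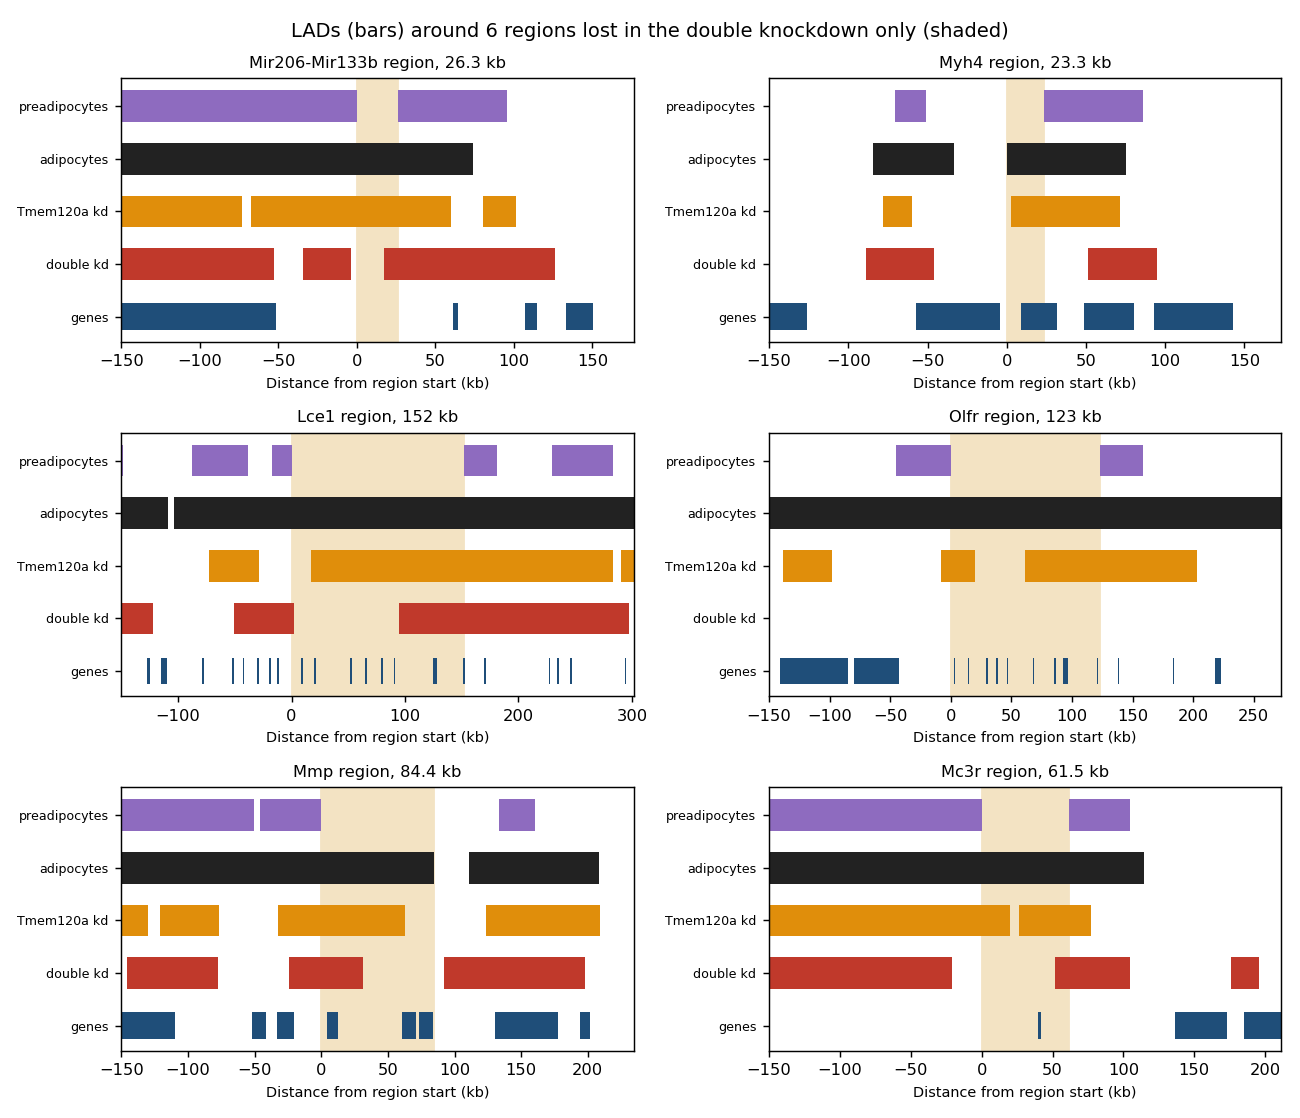
Bars show LADs of each of the 4 conditions and protein-coding and miRNA genes around 6 members, with distance from the start of the member in kb (x axis) and the member shaded (miRNA genes are too short to stand out at this scale). The double knockdown has no LAD in the shaded Myh4 and Olfr regions and parts of one in the other 4, and in the Mir206-Mir133b, Myh4, Olfr and Mc3r regions the missing stretch also reaches into LAD that preadipocytes had.

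The genes given next are from the 30 that had the TSS in a member and the most sequence inside, and percentages are of the whole gene body. Over these 30 the double knockdown percentage was below the Tmem120a knockdown percentage in 27, equal in 1 and above in 2. These genes were picked by their sequence inside members, so the rule favours this direction and the count is no test. Il1rapl1, a synaptic adhesion gene on the X chromosome, met 3 members with 378 kb of its 1375 kb body. Of the whole body 81.4% was in LADs in the Tmem120a and 39.4% in the double knockdown. Ptprq, a receptor phosphatase of inner ear hair cells, had 78.0% and 23.7%. Npsr1, the neuropeptide S receptor, had 83.0% and 48.1%. Slitrk2, a neuronal membrane protein on the X chromosome, was 100% in LADs in adipocytes and in the Tmem120a knockdown and 0% in preadipocytes and in the double knockdown.

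Car8, a carbonic anhydrase relative of Purkinje cells, had 96.4% of its body in Tmem120a knockdown LADs and 0% in double knockdown LADs. Trhr, the receptor of thyrotropin-releasing hormone, had 42.6% and 0%. Rhag, a red cell membrane protein, had 42.2% and 0%, and Trat1, a T cell receptor adaptor, 48.8% and 0%. Adam22, a neuronal receptor, had 97.0% and 47.8%. In 8 of the 30 the body fell by under 20 points or did not fall. Hs3st5, a heparan sulfate sulfotransferase, had 53.2% in the Tmem120a and 87.8% in the double knockdown, and Sema3e was likewise higher in the double knockdown. Glipr1l2, which lay wholly inside a member, had 100% in both. Values were close in Serpinb2, in Abca13, a transporter (95.6% and 93.0%), in Nkain2 (80.5% and 71.9%) and in 4921504E06Rik (91.3% and 81.9%), and Lrrc55 had 18.2% and 0%.

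Peg3, an imprinted gene expressed from the paternal copy (chr7:6656603-6683132, minus strand), was almost wholly in a member of 45.9 kb. Its body was 1.504% in preadipocyte LADs, 100% in LADs of adipocytes and of the Tmem120a knockdown, and 0% in those of the double knockdown. DamID cannot tell the parental copies apart.

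The 250 bases upstream of the TSS are printed for 6 genes whose TSS lay in members, chosen after their values were seen, since each TSS was in LADs in adipocytes and the Tmem120a knockdown and not in the double knockdown. They are read 5′ to 3′ on the gene's strand from NCBIM37, with each CANNTG, the E-box to which basic helix-loop-helix factors bind, in capitals.
Myh4, chr11:67051064-67051313, plus strand: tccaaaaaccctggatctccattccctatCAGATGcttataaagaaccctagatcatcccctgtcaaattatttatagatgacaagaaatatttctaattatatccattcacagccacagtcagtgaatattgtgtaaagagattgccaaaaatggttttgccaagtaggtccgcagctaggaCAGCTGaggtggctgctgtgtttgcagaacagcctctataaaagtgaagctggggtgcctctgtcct
Mc3r, chr2:172073742-172073991, plus strand: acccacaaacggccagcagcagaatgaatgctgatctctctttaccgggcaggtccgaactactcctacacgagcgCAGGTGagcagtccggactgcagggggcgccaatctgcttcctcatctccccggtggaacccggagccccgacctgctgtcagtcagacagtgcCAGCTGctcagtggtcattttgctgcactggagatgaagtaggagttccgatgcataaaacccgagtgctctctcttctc
Sema3e, chr5:14025026-14025275, plus strand: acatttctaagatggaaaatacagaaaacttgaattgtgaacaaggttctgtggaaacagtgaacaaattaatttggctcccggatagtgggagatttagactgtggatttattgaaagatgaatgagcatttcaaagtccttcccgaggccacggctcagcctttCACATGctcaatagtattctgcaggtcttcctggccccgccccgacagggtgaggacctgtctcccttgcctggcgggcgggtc
Pcdh7, chr5:58109010-58109259, plus strand: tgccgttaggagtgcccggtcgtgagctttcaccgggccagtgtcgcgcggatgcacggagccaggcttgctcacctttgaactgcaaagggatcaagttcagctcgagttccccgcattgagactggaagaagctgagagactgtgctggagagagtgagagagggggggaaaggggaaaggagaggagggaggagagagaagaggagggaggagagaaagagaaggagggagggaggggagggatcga
Peg3, chr7:6683133-6683382, minus strand: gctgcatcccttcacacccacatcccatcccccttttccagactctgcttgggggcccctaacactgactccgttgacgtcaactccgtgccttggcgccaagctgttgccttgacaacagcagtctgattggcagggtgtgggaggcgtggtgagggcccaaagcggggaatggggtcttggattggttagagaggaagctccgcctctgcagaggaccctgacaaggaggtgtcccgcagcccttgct
Mmp8, chr9:7558179-7558428, plus strand: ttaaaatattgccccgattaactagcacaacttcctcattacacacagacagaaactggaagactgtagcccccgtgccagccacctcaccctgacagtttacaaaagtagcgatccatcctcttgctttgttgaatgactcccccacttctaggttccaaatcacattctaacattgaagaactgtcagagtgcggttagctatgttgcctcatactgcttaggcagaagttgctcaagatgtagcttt
Myh4 and Mc3r hold 2 E-boxes each, Sema3e 1, and Pcdh7, Peg3 and Mmp8 none in this window. E-boxes were found upstream of 51 of the 79 genes (64.6%) and of 63.5% of all 22367 genes. The nuclear receptor core site AGGTCA, searched on both strands, was found upstream of 11 of the 79 (13.9%) and of 12.5% of all. GATC was found upstream of 37 of the 79 (46.8%) and of 40.2% of all. In these letters the upstream windows of genes in members resembled those of other genes.

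Of the other miRNA genes in members, Mir713 (chr13:62862099-62862206) was in LADs in adipocytes and the Tmem120a knockdown and outside them in preadipocytes and the double knockdown, in a region that was 100% and 38.5% covered. Of the 9 miRNA genes, 7 were in Tmem120a knockdown LADs and not in double knockdown LADs, 1 (AC122359.1) was in both and 1 (AC154460.1) in neither.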

How the data were processed

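The authors mapped DamID reads from 3T3-L1 cells to mm9 (their processing notes name BWA and limma), computed log2(LaminB1-Dam/Dam) per DpnI fragment, called LADs with DNAcopy and listed regions gained or lost in differentiation. The deposited lists used here hold positions only: LADs of the 4 conditions and the regions recruited in adipocytes. The deposited list of released regions was not used. Starts were read as counted from 0 and are printed counted from 1.

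Overlaps were computed by base with Python 3.11.15, numpy 2.4.6 and pandas 2.3.3, with genes and sequence of NCBIM37, the same build, and intervals with scipy 1.17.1. Overlap code was checked on simulated intervals. Groups came from the sample labels. With 1 library pair a condition, no test was run. Members and gene lists were chosen with earlier results of these data known. The rule for naming took the 8 longest members, the 8 longest complete cases, members at the thresholds, up to 30 genes with TSS in a member by length inside, miRNA genes and genes of the lists. Some regions and genes so chosen are not named. Alternatives varied the overlap, LAD length, gaps, region length, region list, windows and chromosome X.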

Additional observations from a re-analysis of the deposited data

How the results depend on the processing

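No paired analysis was possible because each condition has 1 pair of libraries and no replicate, and no replicate could be left out. Under 11 other ways of calling, members numbered 160 to 491 and median GC content stayed between 38.6% and 39.2%. Requiring at least 80% in the Tmem120a and at most 20% in the double knockdown gave 160 members, 6.51 Mb, a median of 30.8 kb, 8.85% of recruited regions and 2.00% of constant windows (1.995). With 75% overlap, 19.4% of recruited regions and 8.32% of windows were called, with any overlap 18.03% and 1.96%, and with knockdown LADs of at least 100 kb 17.5% and 8.85%. The share touching a constant LAD was 79.1% with any overlap and 93.0% with LADs of at least 100 kb. The share of windows was 3.26% with 25% overlap, 5.67% with LADs of at least 30 kb, 3.27% with gaps under 50 kb closed, 4.75% without chromosome X, 6.21% in 20 kb windows and 3.06% in 80 kb windows. The cause of these shifts was not tested. The overlap settings of 25%, 75% and any overlap moved the cut for both knockdown lists together. Each was therefore stricter on 1 list and laxer on the other. The rule of at least 80% and at most 20% was stricter on both. Of the 391 members, 175 were also called with any overlap, 210 with LADs of at least 100 kb and 386 with gaps under 20 kb closed. Counting overlaps of gene bodies with members in place of the TSS gave 8.09 overlaps per Mb, with a gene that meets several members counted in each. The lists carry no depth, so no member can be weighed by its reads.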
